A study of Rattus norvegicus with 6 samples.

Results

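The subject here is novel_circ_0012760, a 658 nt circular RNA read from the minus strand of rat chromosome 17, 29730437 to 29731094, whose deposited sequence is as long as its genomic span. With it are described the 5 other circRNAs of the same strand whose span overlaps this segment, so that 6 of the 32445 circRNAs in the deposited table were taken. The 658 nt circle was chosen by its measured values, as one of the most abundant circRNAs and the most abundant single-segment circle, so its high level is a description and is not tested. The 5 others were taken by position alone. No source used here gives the genome build or the host gene, and positions are those of the deposited sequence headers.

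RNA came from the thalamus, the relay of orofacial and other sensory input to the cortex, of 6 rats. The temporomandibular joint, which hinges the jaw, received 50 µL of CFA (complete Freund's adjuvant, which provokes lasting inflammation) on both sides in 3 rats, and 50 µL of saline on both sides in the 3 control rats. Injections were repeated 2 times per week in both groups, and tissue was taken at day 14. The sources used here name no strain, sex or age. The libraries held 573696 to 1176178 circRNA reads. The sample names of CFA replicates 1 and 2 carry another letter than that of CFA replicate 3, and those of all saline libraries carry a further letter. No letter is shared between the groups, and what the letters mean is not given. The labels' protocol describes purification on poly-T beads, a step that favours RNA with a poly(A) tail, which circRNAs lack. Its effect on the level of any circle was not tested. Tissue markers could not be checked, since the files do not pair circRNAs with genes.

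A circRNA forms by back-splicing, when the splice donor at the end of an exon is joined to an acceptor upstream of it and not to the next exon. If both sites belong to the same exon, the product is a single-exon circle. Having no free ends, circRNAs are protected from exonucleases, and neural tissue is known to be rich in them. Functions described for some circRNAs include binding of miRNAs or proteins, and a few carry a reading frame from which protein can be made without a cap.

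The stretch of the 658 nt circle around its back-splice is shown because it holds both shared ends and both ends of its longest reading frame. It runs from position 559 over the last 100 nt before the junction and on into the first 200 nt of the segment, 300 nt in all, as they follow each other in the RNA. Positions are counted from 1 at the first base after the acceptor. Capitals mark the start codon and the stop codon.

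novel_circ_0012760 across its junction: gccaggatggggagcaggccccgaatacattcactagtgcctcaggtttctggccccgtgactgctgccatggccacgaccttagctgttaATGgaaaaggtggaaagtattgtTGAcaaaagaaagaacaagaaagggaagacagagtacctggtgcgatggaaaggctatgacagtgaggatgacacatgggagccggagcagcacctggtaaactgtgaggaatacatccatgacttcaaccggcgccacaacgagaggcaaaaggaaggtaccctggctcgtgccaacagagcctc

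The junction sequences show how the 6 circles are related. Each is the deposited 58 nt across the back-splice, with 29 nt before and 29 nt after it, and capitals mark a side that is identical to that of the 658 nt circle. The circles are named by their deposited length.

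658 nt circle: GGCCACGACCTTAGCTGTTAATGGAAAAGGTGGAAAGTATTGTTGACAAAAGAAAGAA
733 nt circle: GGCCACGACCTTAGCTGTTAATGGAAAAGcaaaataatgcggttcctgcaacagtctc
260 nt circle: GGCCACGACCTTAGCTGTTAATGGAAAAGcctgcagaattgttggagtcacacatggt
742 nt circle: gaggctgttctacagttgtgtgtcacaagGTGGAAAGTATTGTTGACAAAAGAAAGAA
831 nt circle: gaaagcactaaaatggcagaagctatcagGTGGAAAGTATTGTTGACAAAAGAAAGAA
869 nt circle: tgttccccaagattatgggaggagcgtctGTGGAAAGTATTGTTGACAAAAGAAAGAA

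Every one of the 5 overlapping circles used a splice end of the 658 nt circle. The 742 nt, 831 nt and 869 nt circles started at the same acceptor, the end at 29731094, and closed at donors farther downstream, at 29700113, 29688207 and 29682954. The 733 nt and 260 nt circles ended at the same donor, at 29730437, and started upstream, at 29757605 and 29737981. Spans ran from 658 nt for the abundant circle to 48141 nt for the 869 nt circle, which lies across 48141 nt of genome but keeps only 869 nt in its deposited sequence. On the plus strand, 0 circRNAs overlapped the segment.

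**Figure D1:**
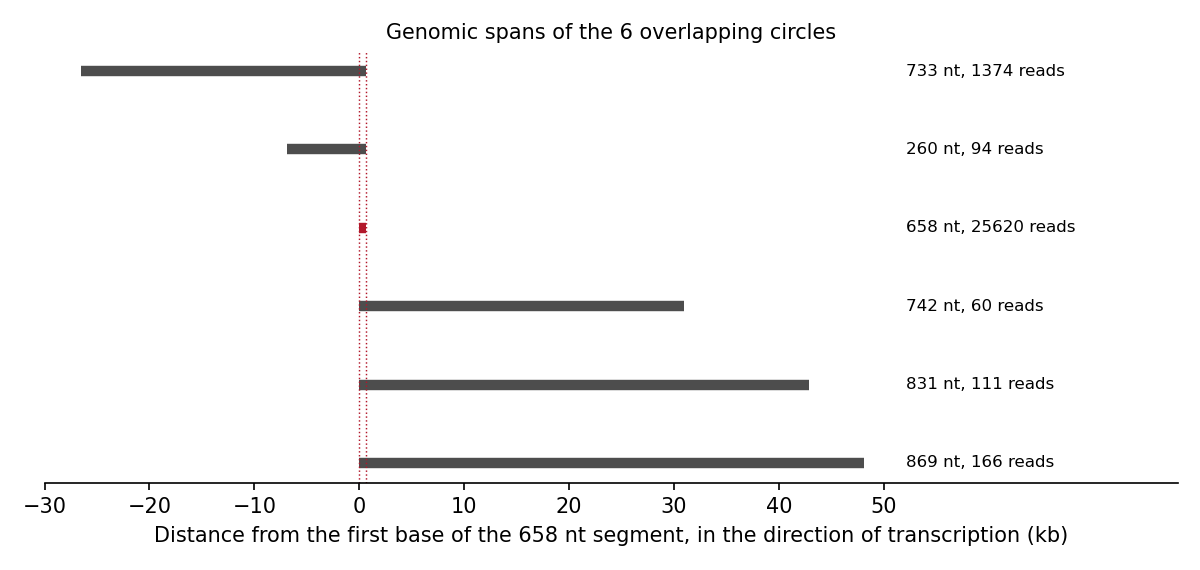
Genomic span of each of the 6 overlapping circles, in kb from the first base of the 658 nt segment and in the direction of transcription; the label gives the spliced length and the reads summed over the 6 libraries. The 658 nt circle (red, 25620 reads) is the short segment that all the others reach across or end in, with 60 to 1374 reads each.

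Of the 5, 4 carried the whole 658 nt sequence and added a further stretch to it. The 733 nt circle, novel_circ_0012762, put 75 nt in front of it, and these are shown because they continue its reading frame: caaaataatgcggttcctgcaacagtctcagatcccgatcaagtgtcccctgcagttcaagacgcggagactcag. The 742 nt circle, novel_circ_0012758, placed 84 nt behind it. The 831 nt circle, novel_circ_0012757, added 173 nt, the same that end novel_circ_0012756, a circle of 430 nt lying wholly downstream. The 869 nt circle, novel_circ_0012755, added 211 nt, which also end the 468 nt circle novel_circ_0012754, likewise downstream. The 260 nt circle, novel_circ_0012761, was the exception: it held only the last 100 nt of the segment, after 160 nt from upstream. The inner parts of these sequences are as deposited, and whether reads covered the inner splices is not stated. With the 2 downstream circles the locus, a run of circRNAs that overlap on the minus strand, held 8 circRNAs from 29682954 to 29757605.

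Within the deposited set, no circRNA from elsewhere shared a stretch of 25 nt with the 658 nt circle. The 25 nt words of its circular sequence recurred in 5 other circRNAs, and these were the 5 overlapping ones. In reverse complement the words occurred in 0 circRNAs. Its 58 nt junction belonged to 1 circRNA, itself.

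In each rat the 658 nt circle was among the best-read circRNAs of the thalamus. Its read counts were 3959, 2942 and 4098 in the CFA libraries and 2672, 6489 and 5460 in the saline libraries. As RPM (reads scaled to 1000000 circRNA reads of the library, with no length term) these were 6030, 4515 and 4536 after CFA and 4658, 5517 and 5833 after saline. The lowest and the highest of the 6 values both came from CFA rats, so the groups overlapped fully. Over the 6 libraries the mean was 5181 ± 692 RPM (SD, n = 6), which is rank 5 of 32445. Its reads made up 0.523% of all circRNA reads.

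Of its nearest neighbours in this order, only the circle at rank 2 stood clear of it. At rank 4, a 1411 nt circle of chromosome 10, 16724062 to 16730140, had 5531 ± 1210 RPM (SD, n = 6), yet the 658 nt circle was the higher in 4 of 6 libraries. At rank 6, a 617 nt circle of chromosome 16, 23555919 to 23600154, had 4698 ± 782 RPM (SD, n = 6) and lay below it in 4 of 6 libraries. At ranks 7 and 8 followed a 434 nt circle of chromosome 7, 138002505 to 138021168, with 4622 ± 306 RPM and an 855 nt circle of the same chromosome, 30714506 to 30735182, with 4509 ± 1083 RPM (SD, n = 6 each). Each of these lay below the 658 nt circle in 5 of 6 libraries. The 1016 nt circle of chromosome 1 at rank 3 had 6595 ± 1159 RPM, above it in 4 of 6 libraries, since the 658 nt circle was the higher in 2. Only the 531 nt circle of chromosome 7 at rank 2, with 11676 ± 3187 RPM, was above it in each of the 6 among these neighbours.

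Among circles made of a single segment it came first. These numbered 770, or 2.37% of all circRNAs, and their median level was 5.83 RPM, against 4.25 RPM for the others. Alone, the 658 nt circle held 7.74% of their reads. The next was a 408 nt circle of chromosome 7, 52745151 to 52745558, with 3543 ± 1291 RPM (SD, n = 6), and the 658 nt circle exceeded it 1.46-fold in the mean and in 6 of 6 libraries. Then came a 551 nt circle of chromosome 6, 12179226 to 12179776, with 2991 ± 652 RPM and a 630 nt circle of chromosome 18, 75429814 to 75430443, with 2949 ± 122 RPM (SD, n = 6 each). The 1099 nt circle of chromosome 3, 94396940 to 94398038, averaged 2665 ± 1509 RPM (SD, n = 6), with no reads listed in 1 library. Per length the first places change: at 7874 RPM per kb the 658 nt circle was rank 2 of the single-segment circles, behind the 408 nt circle with 8683 RPM per kb, and rank 8 of all. Whether the counts are junction reads alone is not stated, and for such reads dividing by length only favours short circles.

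**Figure D2:**
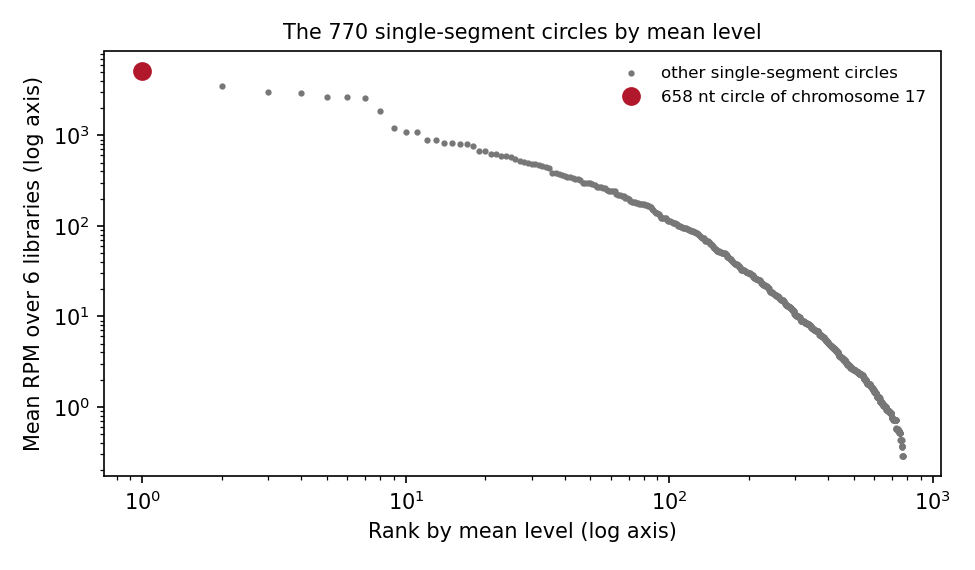
Mean RPM over the 6 libraries of the 770 single-segment circles (vertical log axis) against their rank (horizontal log axis). The 658 nt circle of chromosome 17 (red) is at 5181 RPM, and the second circle is at 3543 RPM.

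Its level varied moderately from rat to rat. The coefficient of variation over the 6 libraries was 13.3%, where counting error alone gives 1.24% to 1.94%. For the 23 other circRNAs within 2-fold of its mean the median was 17.6%, with a range of 4.15% to 56.6%, and 8 of the 23 varied less. PCR reads without molecular identifiers are not independent molecules, so counting errors and the intervals below are lower limits.

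The 733 nt circle was the one companion with a sizeable level. Its counts were 217, 204 and 187 in CFA rats and 142, 312 and 312 in saline rats, or 330.5, 313 and 207 RPM against 248, 265 and 333 RPM. The lowest value came from CFA replicate 3 and the highest from saline replicate 3, and the groups overlapped. Its mean of 283 RPM put it at rank 585 and 18.3-fold below the 658 nt circle. Within a library there were 14.4 to 21.9 reads of the 658 nt circle for each read of the 733 nt circle, 18.2 ± 3.75 after CFA and 19.0 ± 1.66 after saline (mean ± SD, n = 3 each).

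The 4 remaining circles were sparse. Together they held 431 reads, 1.57% of the reads of the 6 circles, at 0 to 59.3 RPM per library. The 869 nt circle was counted 15, 10 and 35 times in CFA rats and 34, 28 and 44 times in saline rats. The 831 nt circle had 5, 14 and 22 against 18, 37 and 15 reads, and the 260 nt circle 4, 12 and 23 against 7, 29 and 19. All 3 were read in each of the 6 libraries, and in each of them the values of both groups overlapped. For the 742 nt circle the counts were 10, 7 and 22 in CFA rats, with 3, 0 and 18 in saline rats. It was the only one of the 6 listed at 0 anywhere, in saline replicate 2, the deepest library. The table lists no count of 1, so this 0 may stand for 1 read.

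**Figure D3:**
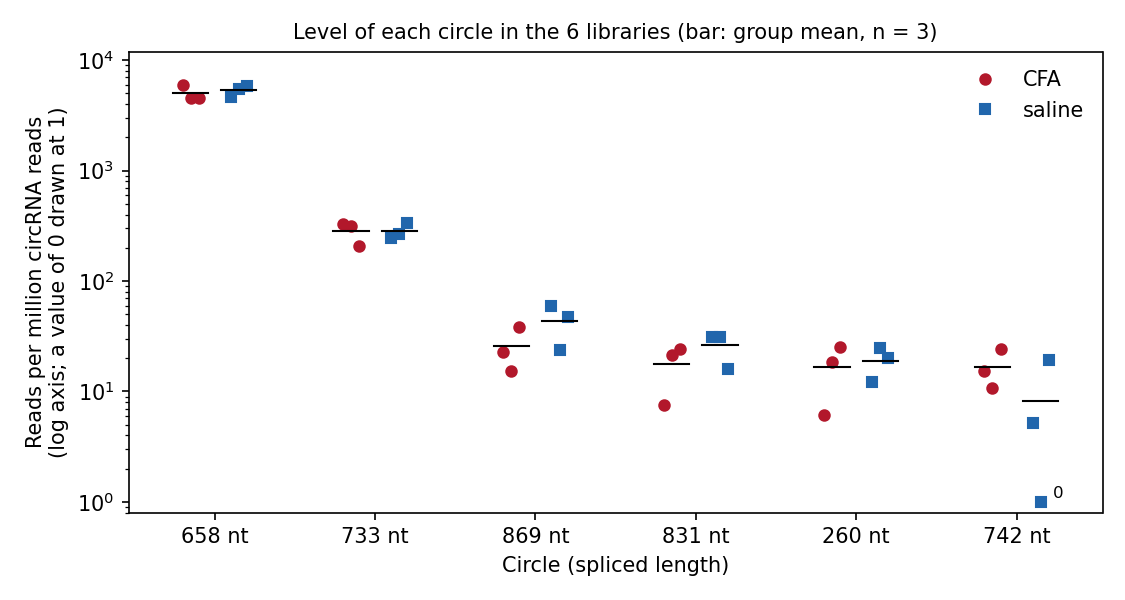
RPM of the 6 circles (vertical log axis) in each CFA library (red circles) and saline library (blue squares), with the mean of each group of 3 as a bar; a value of 0 is drawn at 1. The 658 nt circle is at 4515 to 6030 RPM, the 733 nt circle at 207 to 333 RPM and the 4 others at 59.3 RPM or less, and both groups overlap for each circle.

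Most reads counted for circles with either of its splice ends were counted for the 658 nt circle. Of the reads of circles that start at its acceptor it held 99.2%, 99.0% and 98.1% in the CFA libraries and 98.0%, 99.0% and 98.6% in the saline libraries. Of the reads of circles that end at its donor it held 94.7%, 93.2% and 95.1% against 94.7%, 95.0% and 94.3%. By these counts the part held by other circles was larger at the donor than at the acceptor in each of the 6 libraries, mainly through the 733 nt circle. Whether the counts are junction reads alone is not stated. Each of the other circles holds part or all of the 658 nt sequence, so a read from inside that sequence cannot be assigned to a single circle. The shares describe back-splices only if the counts are junction reads. Reads of linear RNA were not analysed here.

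Of the reads counted for all 6 circles, the 658 nt circle held 93.4%, 25620 of 27425, with the same limit from shared sequence. The libraries ranged from 92.2% (95% Wilson interval 91.3 to 93.1%) in CFA replicate 2 to 94.1% (93.5 to 94.6%) in saline replicate 2. Its share was 93.2 ± 0.905% after CFA and 93.4 ± 0.659% after saline (mean ± SD, n = 3 each), a difference of -0.12 percentage points. An exact two-sided permutation test gave p = 0.9, and with 3 rats against 3 this test cannot go below 0.1. The sign of this difference was not stable: leaving out CFA replicate 2 gave 0.37, and leaving out saline replicate 2 gave 0.26. Among 3290 loci with at least 2 circRNAs and 100 reads the leading circle held a median of 61.8%. Here it held 92.9% of the 8 circRNAs' reads, a share exceeded at 395 of those loci, 12.0%. Of the 192 loci among them with 8 circRNAs, 4 had a higher share and the median was 52.0%. The 658 nt circle was chosen for its high level, which by itself favours a high share. Its place among the loci is therefore a description and is not tested.

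**Figure D4:**
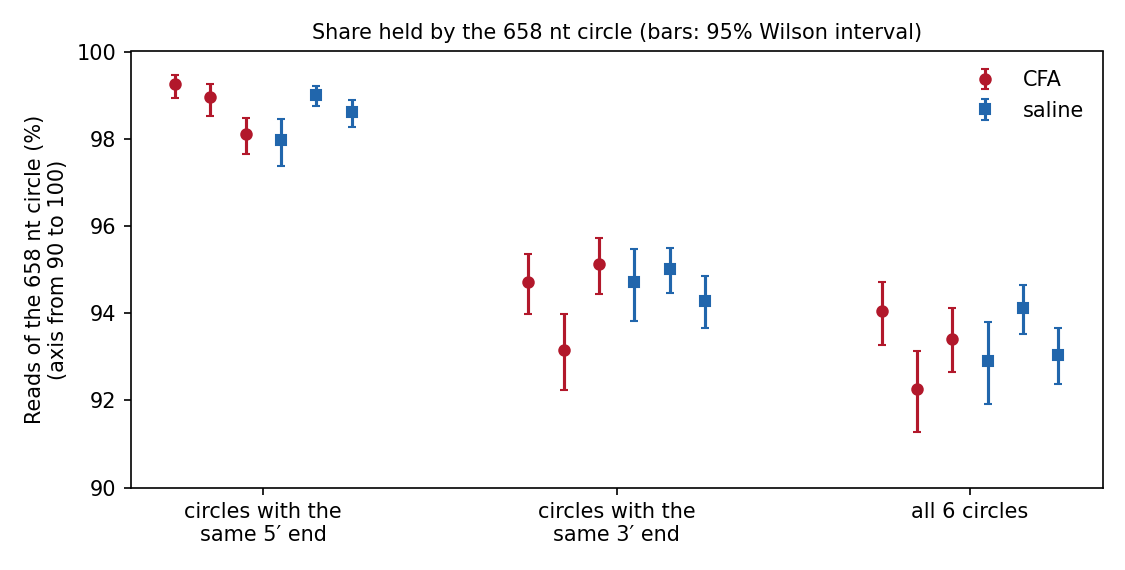
Reads of the 658 nt circle as a percentage (axis from 90 to 100) of the reads of circles with its 5′ end (acceptor), of those with its 3′ end (donor) and of all 6 circles, per CFA library (red circles) and saline library (blue squares) with 95% Wilson intervals. Shares are 98.0 to 99.2% for the acceptor, 93.2 to 95.1% for the donor and 92.2 to 94.1% for all 6 circles.

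Between CFA and saline rats the 658 nt circle differed by less than the spread between libraries. CFA rats averaged 5027 ± 868 RPM and saline rats 5336 ± 608 RPM (mean ± SD, n = 3 in each group). Its log2 fold change (CFA minus saline) was -0.13 ± 0.21 (SE), and the adjusted p was 0.9999 in edgeR (quasi-likelihood, Benjamini-Hochberg over 22426 circRNAs). The approximate 95% interval of -0.55 to 0.30 spans 0.684-fold to 1.23-fold, so a change of 2-fold in either direction lies outside it. Of the 22426 circRNAs tested 5 had a smaller SE. Without CFA replicate 3, whose letter differs from that of the other CFA libraries, the log2 fold change was -0.08. The CFA and saline libraries that remained still differed in letter, so letter and treatment cannot be told apart. In bulk tissue, fewer cells of a type and less RNA per cell cannot be told apart.

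Of the 5 overlapping circles 0 passed the threshold in edgeR, and 0 had an unadjusted p below 0.05. Over all 22426 circRNAs tested 28 passed, or 0.125%, a count that was 4 in DESeq2. Once circRNAs under 30 counts were dropped edgeR called 0, with 237 below 0.05 before adjustment. DESeq2 called 0 of the 6 circles, also with 0 at an unadjusted p below 0.05. In CFA rats the 733 nt circle averaged 283 ± 66.8 RPM and in saline rats 282 ± 45.3 RPM (SD, n = 3 each), with a log2 fold change of -0.04 ± 0.32 (SE). The log2 fold changes of the 869 nt, 831 nt and 260 nt circles were -0.73 ± 0.57, -0.57 ± 0.72 and -0.25 ± 0.84. That of the 742 nt circle was 1.0 ± 1.2, a value that moved to 2.86 when saline replicate 3 was left out and to 0.40 when saline replicate 2 was. The median over the 5 was -0.25, beside -0.05 over all circRNAs tested. Approximate 95% intervals of the 4 sparse circles were -1.36 to 3.36 (742 nt), -1.89 to 1.40 (260 nt), -1.99 to 0.85 (831 nt) and -1.85 to 0.39 (869 nt). A 2-fold fall lies inside each of them, and a 2-fold rise inside those of the 742 nt and 260 nt circles. In 0 of the 6 circles did the RPM of both groups not overlap, and over all tested circRNAs this share was 6.63%.

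The sum of the locus did not pass either. Summed over its 8 circRNAs, CFA rats averaged 5415 ± 895 RPM and saline rats 5753 ± 631 RPM (mean ± SD, n = 3 in each group). The log2 fold change was -0.11 ± 0.19 (SE), at an adjusted p of 0.9998 in edgeR (quasi-likelihood, Benjamini-Hochberg). Of 7580 loci tested 1 was called, or 0.0132%, and 0 in the fit that is not robust (136 at an unadjusted p below 0.05). The 2 circles downstream of the segment had log2 fold changes of -0.58 ± 1.08 (468 nt) and -0.38 ± 0.82 (430 nt) and did not pass.

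The sequence of the 658 nt circle held a frame open from end to end. In its first frame 0 stop codons occurred over the 658 nt, against 7 in the second frame and 12 in the third, and in reverse complement 0 frames were open throughout. A linear copy of the segment has a start codon in that frame from position 373 on, with 285 nt to the segment's end. On the circle the longest reading frame was longer. It began at the ATG at position 650, ran 9 nt to the junction, passed through all 658 nt, crossed the junction again and stopped 14 nt later at the TGA at positions 15 to 17. This gives 681 nt or 227 codons. As 658 leaves 1 base over when divided into codons, the frame shifts at each pass of the junction and meets that stop on the second pass.

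**Figure D5:**
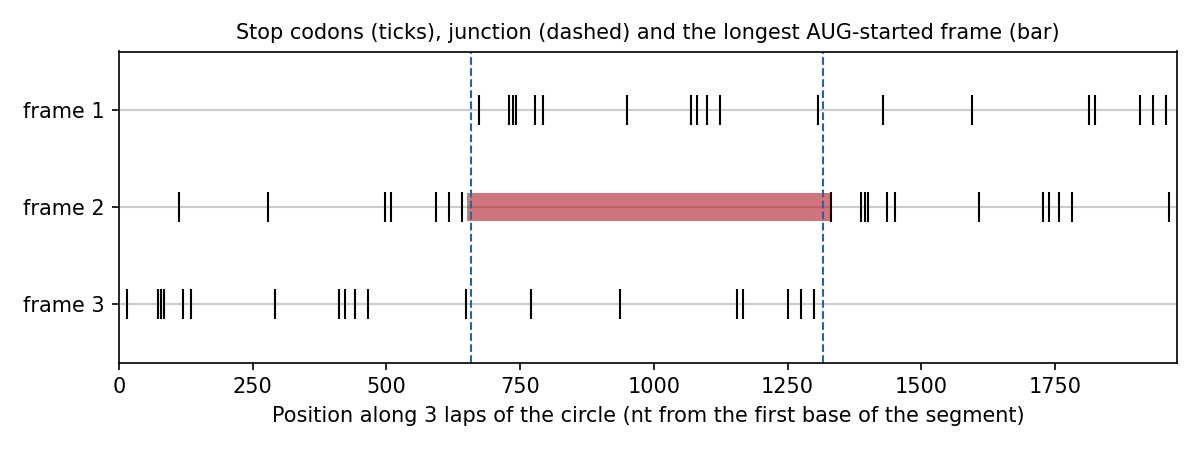
Stop codons (ticks) in the 3 frames over 3 laps of the 658 nt circle, with position in nt on the horizontal axis and the back-splice junction as dashed lines. The bar marks the longest frame that starts with a start codon, 681 nt from position 650 of the first lap, which lies in the stop-free stretch that enters frame 2 through the shift at the junction.

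The same ATG was present in all 6 circles, since each contains the last bases of the segment, but what followed it differed. In the 733 nt circle it was joined to the 75 nt in front of the segment, and the frame ran on for 747 nt or 249 codons, more than the length of that circle. In the 260 nt circle it gave 159 nt. In each of the 3 circles that extend downstream it read into their added stretches and gave 36 nt (869 nt circle), 63 nt (742 nt circle) and 294 nt (831 nt circle). A frame longer than 1 lap was thus found from this ATG in the 2 best-read circles of the 6. From other start codons the sparse circles had longer frames, each shorter than its circle. These were 696 nt (869 nt circle), 417 nt (831 nt circle), 384 nt (742 nt circle) and 189 nt (260 nt circle). That of the 869 nt circle began at position 840 in its added stretch and read through the whole 658 nt segment. At 232 codons it was longer than the frame of the 658 nt circle. Translation was not measured.

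Such frames were common among circles of this kind. Of the 769 other single-segment circles, 386 (50.2%) had a frame without a stop over the whole sequence, and 7.80% had one in reverse complement. A start-codon frame of at least 1 lap was found in 289 of them (37.6%), 123 with no stop at all. Among the 2057 other circles within 10% of its length, 48.4% had a frame without a stop and 0.632% had one in reverse complement. A start-codon frame of at least 1 lap was found in 38.2% of them. In base composition it was GC-rich: GC content was 55.2%, higher than in 77.0% of the other single-segment circles (median 50.2%) and in 92.7% of those of similar length (median 47.3%). Adenine made up 29.0% of the bases, against medians of 26.6% and 28.5%, and the longest run of A was 5, against 4 and 5.

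The study asked which miRNAs its circRNAs could bind. Seed matches (the reverse complement of positions 2 to 8 of a mature miRNA, on the sense strand only, read across the junction) were searched for 15 miRNAs with RefSeq sequences (GRCr8) out of a list of 16; miR-124 was not searched. The words were GTCTTCC for miR-7, ACCAAAG for miR-9, ATAAGCT for miR-21, TGGTGCT for miR-29, CACTGCC for miR-34, ATGCTGC for miR-103, CTCAGGG for miR-125 and CACTGTG for miR-128. They were GACTGTT for miR-132, CACCAGC for miR-138, AGTTCTC for miR-146, AGCATTA for miR-155, GTGCCAT for miR-183, AACTGAC for miR-223 and CTACCTC for let-7. The list names miRNAs known from neurons, such as miR-9, or from inflammation, such as miR-21, miR-146 and miR-155. Of the 15 words searched, 0 occurred in the 658 nt circle. Each word alone occurred in 2.58% (miR-21) to 10.3% (miR-138) of the 2057 other circles within 10% of its length. The absence says only that these letters are not in this sequence.

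By the rule fixed for likeness, the circRNAs whose levels followed the 658 nt circle most closely were sought among 1657 with reads in all 6 libraries and at least 100 RPM. Likeness was Pearson's r of log2(RPM + 1) over the 6 libraries. The values of a library share its depth, by which all of them are scaled. The closest was a 641 nt circle of chromosome 1, 15488392 to 15494771, with r = 0.988. It had 398, 172 and 201 RPM after CFA and 193, 305 and 338 RPM after saline. Then came an 829 nt circle of chromosome 1, 253120469 to 253134791, with r = 0.970 and a 436 nt circle of the X chromosome, 30754186 to 30759002, with r = 0.939. They were picked as the highest of many over 6 points, so these values are a description only.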

How the data were processed

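Sample titles gave each library's group and replicate number. Every test used the raw counts per circRNA that, per the file headers, the authors deposited. Its other columns, named TPM in the header, were RPM values deposited by the authors: 1 read was worth the same for every circRNA of a library. The text's RPM were recalculated from the counts, over their sum in each library. The submitters' processing notes name featureCounts 1.5.0-p3, HISAT2 2.0.5, DESeq2 1.20.0 and StringTie 1.3.3b, with no role given. No source used here names the circRNA caller or genome build, or says whether counts are junction reads alone.

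Positions, strands and sequences came from the deposited sequence file, an entry type with no measured unit, and 1 was added to starts. For 44 identifiers with 2 positions the first was used. No host gene was assigned.

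circRNAs with at least 10 counts over the 6 libraries, 22426 of 32445, were tested with edgeR 4.0.16 in R 4.3.3 (TMM, robust quasi-likelihood, no covariates, Benjamini-Hochberg threshold 0.05), as were loci. SE is approximate (log2 fold change divided by the root of F). The fit was tried on simulated counts with the real means and with dispersions whose highest values were capped. Changes were put only into circRNAs of at least 100 RPM with reads in all 6 libraries. It recovered 2% of the 100 changes of 2-fold and 32% of the 100 changes of 4-fold. With 41 false calls it made more false calls than true ones, so neither a call nor the lack of one settles a single circRNA. DESeq2 1.42.0 was an alternative. Shares were compared by exact permutation in scipy 1.17.1. The labels describe the rats as separate animals. Members, lists and tests were chosen with earlier results of these data known. Named circRNAs were the 6 circles, the 3 next above and below in mean RPM, the 5 most abundant single-segment circles and the 3 most alike.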

Additional observations from a re-analysis of the deposited data

How the results depend on the processing

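No alternative brought the 658 nt circle, an overlapping circle or the locus past the threshold. The log2 fold change of the 658 nt circle kept its sign in 14 alternatives, at -0.29 (without CFA replicate 1) to -0.03 (without saline replicate 3), and that of the locus in 15, at -0.27 to -0.01. The 658 nt circle's share of the 6 circles' reads differed by -0.52 to 0.37 percentage points when 1 library was left out. The difference was 0.0394 over the reads of the whole run and 0.0513 with only the members read in all 6 libraries, both reversed in sign, and the cause was not tested. With 1 library left out, the log2 fold change of the 260 nt circle lay between -0.73 and 0.14 (above 0 without CFA replicate 1 and, at 0.02, without saline replicate 2), that of the 733 nt circle between -0.18 and 0.12 (above 0 without CFA or saline replicate 3) and that of the 468 nt circle between -1.11 and 0.04 (above 0 without saline replicate 1). That of the 733 nt circle was 0.00 with total counts alone.

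Over all circRNAs edgeR called 28, and 28 with RLE, 28 with total counts alone, 32 without a filter, 0 with at least 30 counts, 0 with filterByExpr, 32 in the fit that is not robust and 45 with the replicate block, while DESeq2 called 4 (unadjusted p below 0.05: 602 in edgeR, 237 with at least 30 counts, 130 with filterByExpr, 379 in DESeq2). Leaving out 1 library gave 15 to 40. Over all loci edgeR called 1, and 26 with the replicate block, 4 without a filter, and 0 with at least 30 counts, with filterByExpr and in the fit that is not robust (unadjusted p below 0.05: 104, 78 and 136). Leaving out CFA replicate 3 gave 3 loci, and leaving out any other library 0 (90 to 201 at an unadjusted p below 0.05). Same-numbered libraries deviated together at r = 0.04, -0.02 and -0.16, so the numbers are not read as pairs. With the replicate block the log2 fold change of the 658 nt circle was -0.13, that of the locus -0.11, and 0 overlapping circles passed. The share's difference with signs permuted within pairs was -0.12 (exact permutation test, p = 1).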
